A study of Rattus norvegicus with 30 samples.

Results

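The genes described here are 8 markers of dividing cells and neural progenitors, measured in brain RNA of rat pups: Mki67, Top2a, Cdk1, Ccnb1, Pcna, Nes, Sox2 and Vim. They were chosen by name as a list of known markers, with earlier results of these data known. All 8 were found once each among the 32586 rows of the count matrix. All 8 also had enough counts to be tested, as did 15885 genes in all. The matrix carries only rat Ensembl identifiers. The pairing of symbol and identifier is the one used to select the genes, and neither the matrix nor the gene table at hand could check it: ENSRNOG00000028137 for Mki67, ENSRNOG00000053047 for Top2a, ENSRNOG00000000632 for Cdk1, ENSRNOG00000058539 for Ccnb1, ENSRNOG00000021264 for Pcna, ENSRNOG00000018681 for Nes, ENSRNOG00000012199 for Sox2 and ENSRNOG00000018087 for Vim.

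The pups came from an inbred epileptic strain and its inbred control. GAERS are Genetic Absence Epilepsy Rats from Strasbourg, which develop spontaneous absence seizures, and NEC are Non-Epileptic Controls. Pups of either strain had been exposed to VPA (valproate), which is used against seizures and is known to inhibit histone deacetylases, or were unexposed controls. The 30 libraries, 1 per pup, fell into GAERS VPA (n = 7), GAERS control (n = 8), NEC VPA (n = 7) and NEC control (n = 8). The labels name the tissue as brain. The sources used here do not give age, sex, litter, brain region, dose, route or time of exposure. Whether pups came from separate litters is not stated, so each p-value measures the spread among these libraries only.

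In a young brain most neurons have left the cell cycle, and division goes on in restricted germinal zones and among glial progenitors. Cells preparing to divide copy their DNA with the help of the clamp protein Pcna. They then untangle it with Top2a and enter mitosis when the kinase Cdk1 is switched on by its partner cyclin B1, the product of Ccnb1. Mki67 encodes the Ki-67 antigen, which is present in cycling cells and lost from resting ones. Sox2 is a transcription factor that keeps neural stem cells undifferentiated, and Nes and Vim encode nestin and vimentin, intermediate filaments of radial glia and other progenitors. Sox2 and Vim are also made outside progenitors, Sox2 in astrocytes and Vim in astrocytes, ependyma and vessels.

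Total counts ran from 26963266 to 56568656 per library, with lower means in both exposed groups than in both control groups. Levels are given as CPM, the counts of a gene scaled to a common library size by the TMM method. The smallest count of any of the 8 genes in any pup was 470. The library least like the rest of its group, by the median correlation of log2 CPM, was GAERS VPA 4, GAERS control 1, NEC VPA 7 and NEC control 3 in its group, at 0.976 to 0.985. The other libraries lay at 0.989 to 0.993. Fitted values without these 4 libraries are given in each comparison. Markers of brain regions and of other cell types could not be matched to identifiers, so the labelled tissue and its cell composition were not checked.

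All 8 genes were higher in VPA pups than in controls when the effect was averaged over both strains. The increase was 35.8% for Mki67, 37.9% for Top2a, 27.2% for Cdk1, 24.4% for Ccnb1, 17.6% for Pcna, 15.9% for Nes, 17.9% for Sox2 and 11.6% for Vim. The 95% interval ran from 19.3% to 54.4% for Mki67, from 13.6% to 36.2% for Ccnb1 and from 4.02% to 19.8% for Vim. All 8 passed the quasi-likelihood test of edgeR at the threshold of 0.05 (p adjusted over all tested genes by the Benjamini-Hochberg method), with adjusted p from 2.84e-05 to 0.0172, whereas 13.9% of all tested genes were called higher and 29.1% were called in either direction. The median log2 fold change was 0.28 over the 8 genes and -0.0014 over all tested genes. The 8 genes were chosen with earlier results of these data known, so setting them against all tested genes is a description. Without the 4 libraries named above, all 8 were still called, with log2 fold changes of 0.12 to 0.35. In every one of the 8 genes the mean of both exposed groups lay above the mean of both control groups. Bulk RNA cannot tell more dividing cells from more of these RNAs per cell.

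**Figure D1:**
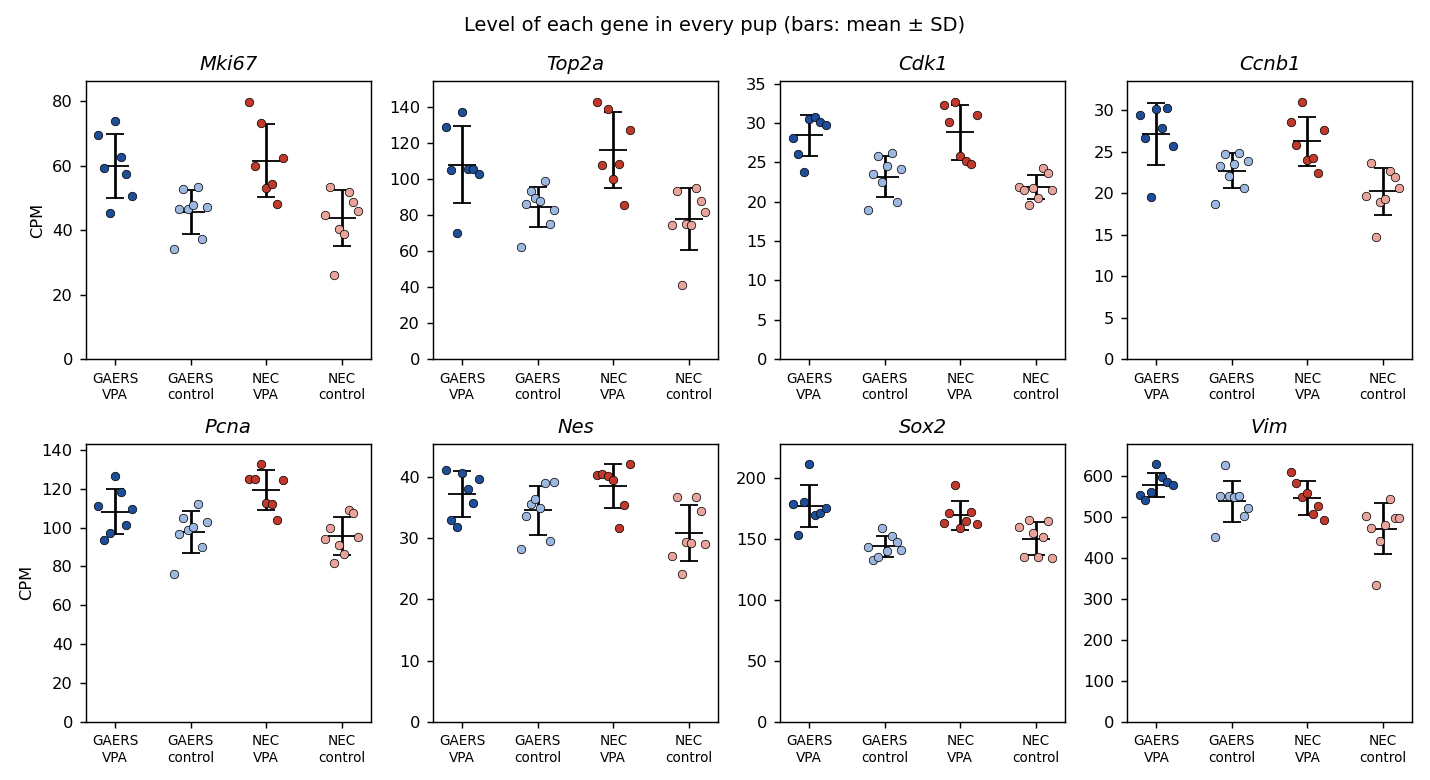
CPM of each gene in every pup on linear axes that start at 0, with GAERS VPA, GAERS control, NEC VPA and NEC control from left to right (n = 7, 8, 7 and 8). Each point is a pup, and the bars give the mean and SD. Exposed pups lie higher than controls of their strain on average in all 8 panels, and the ranges overlap in every pair except Cdk1 in NEC.

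The genes of mitosis are described first. Promoters are shown for these 4 as the mitosis genes of the list. Variation between pups does not set them apart, because Pcna, Nes and Vim varied with them too, as given below. Each is the 250 bases before the RefSeq start on GRCr8, 5′ to 3′ on the gene's strand, matched by symbol. Capitals mark CCAAT boxes (CCAAT), CHR elements (TTTGAA or TTTAAA) and E2F sites (TTTCCCGC, TTTCGCGC, TTTGCCGC or TTTGGCGC), searched on both strands. The CHR element, or cell cycle genes homology region, and the CCAAT box are known from promoters of genes switched on late in the cell cycle, and E2F sites from genes switched on around DNA replication.
Mki67 (GRCr8 chr1:199952594-199952843, minus strand): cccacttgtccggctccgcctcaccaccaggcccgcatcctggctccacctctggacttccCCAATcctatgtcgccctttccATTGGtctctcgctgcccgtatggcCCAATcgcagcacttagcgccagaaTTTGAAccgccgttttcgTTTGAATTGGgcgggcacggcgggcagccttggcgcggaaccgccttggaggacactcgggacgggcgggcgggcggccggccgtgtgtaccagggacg
Top2a (GRCr8 chr10:84473094-84473343, minus strand): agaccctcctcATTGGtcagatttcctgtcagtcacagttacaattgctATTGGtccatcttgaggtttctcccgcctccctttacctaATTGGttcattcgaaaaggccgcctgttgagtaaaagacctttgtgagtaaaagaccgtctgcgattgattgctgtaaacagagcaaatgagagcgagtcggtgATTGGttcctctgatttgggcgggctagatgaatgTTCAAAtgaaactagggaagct
Cdk1 (GRCr8 chr20:19265043-19265292, plus strand): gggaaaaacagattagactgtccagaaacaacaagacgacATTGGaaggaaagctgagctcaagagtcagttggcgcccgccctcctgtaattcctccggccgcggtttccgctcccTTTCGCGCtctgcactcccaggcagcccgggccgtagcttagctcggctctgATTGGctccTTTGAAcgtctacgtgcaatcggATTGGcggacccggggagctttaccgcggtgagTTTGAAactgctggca
Ccnb1 (GRCr8 chr2:33655226-33655475, minus strand): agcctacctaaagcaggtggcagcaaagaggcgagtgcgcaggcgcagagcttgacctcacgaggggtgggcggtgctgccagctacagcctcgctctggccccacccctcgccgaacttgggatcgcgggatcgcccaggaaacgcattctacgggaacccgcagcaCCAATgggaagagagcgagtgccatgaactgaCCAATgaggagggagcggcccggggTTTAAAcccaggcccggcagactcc

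All 4 of these promoters held at least 2 CCAAT boxes and at least 1 CHR element. Mki67 held 4 CCAAT boxes and 2 CHR elements, of which the second CHR element shares a base with a CCAAT box. Top2a held 4 CCAAT boxes and 1 CHR element, Cdk1 held 3 and 2 with 1 E2F site, and Ccnb1 held 2 and 1. Of the other members, Sox2 held 1 CCAAT box and 1 CHR element, Pcna and Vim held 1 CCAAT box each, and Nes held none of the motifs. Among all 33469 promoters of the table, 34.0% held a CCAAT box, 9.42% held 2 or more, 25.4% held a CHR element, 9.04% held both kinds and 1.73% held an E2F site. These matches describe letters in a window of another assembly than the one used for counting.

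Mki67, the proliferation marker, was at 45.5, 59.3 and 74.0 CPM (lowest, median and highest) in GAERS VPA pups, against 34.2, 46.9 and 53.5 CPM in GAERS control pups. In NEC it was at 48.1, 60.1 and 79.9 CPM in VPA pups, against 26.0, 45.3 and 53.5 CPM in control pups. In each strain 5 of 7 exposed pups lay above every control, and the rest overlapped. The increase passed the test in NEC (log2 fold change 0.49 ± 0.13 SE, edgeR adjusted p = 0.00664). In GAERS it was 0.39 ± 0.13 (SE) and did not pass (edgeR adjusted p = 0.0864), though it did with DESeq2 (adjusted p = 0.0477) and in the edgeR fit without NEC control 3 (0.39, adjusted p = 0.0312). Mki67 was 0.28 higher in GAERS and 0.41 higher in NEC without the 4 libraries. With 5 surrogate variables in the model it was 0.48 higher in GAERS (edgeR adjusted p = 0.00022) and 0.37 higher in NEC.

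Top2a, the topoisomerase that separates entangled chromosomes, was at 70.1, 105 and 137 CPM in GAERS VPA pups, against 62.4, 86.7 and 98.8 CPM in GAERS control pups. In NEC VPA pups it was at 85.4, 108 and 143 CPM, against 41.0, 78.3 and 94.7 CPM in NEC control pups. Exposed pups above every control numbered 6 of 7 in each strain. The remaining exposed pups were GAERS VPA 3 and NEC VPA 6. The log2 fold change was the highest of the 8 genes in NEC (0.57 ± 0.14 SE, edgeR adjusted p = 0.00443), while that in GAERS missed the threshold at 0.35 ± 0.14 (SE, edgeR adjusted p = 0.163). Without NEC control 3, the lowest control, the NEC log2 fold change was 0.48 (edgeR adjusted p = 0.00466). The GAERS value depended on the fit, at 0.23 without the 4 libraries (edgeR adjusted p = 0.248) and 0.44 with 5 surrogate variables in the model (edgeR adjusted p = 0.000271). The NEC value was 0.46 without the 4 libraries.

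Cdk1, the mitotic kinase, was called in both strains. It was at 23.8, 29.7 and 30.7 CPM in GAERS VPA pups, against 18.9, 23.8 and 26.2 CPM in GAERS control pups. Levels were 24.7, 30.2 and 32.7 CPM in NEC VPA pups, against 19.6, 21.7 and 24.3 CPM in NEC control pups. In NEC every exposed pup lay above every control, the only such case among the 8 genes in either strain; 1.72% of all tested genes were higher in NEC VPA pups without overlap, and 0.472% in GAERS VPA pups. In GAERS 5 of 7 exposed pups lay above every control. Cdk1 rose by 0.40 ± 0.07 on the log2 scale in NEC (SE, edgeR adjusted p = 0.000631) and by 0.29 ± 0.07 in GAERS (SE, edgeR adjusted p = 0.0233). The GAERS call was lost in fits without GAERS VPA 4 (0.28, adjusted p = 0.0606), GAERS VPA 5 (0.27, adjusted p = 0.062) or GAERS control 7 (0.27, adjusted p = 0.0541). With all 4 libraries least like their groups left out, Cdk1 was 0.24 higher in GAERS (edgeR adjusted p = 0.0483) and 0.36 higher in NEC.

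Ccnb1, the cyclin partner of Cdk1, was at 19.6, 27.8 and 30.3 CPM in GAERS VPA pups, against 18.7, 23.5 and 24.9 CPM in GAERS control pups. In NEC VPA pups it was at 22.4, 25.8 and 31.1 CPM, against 14.7, 20.2 and 23.7 CPM in NEC control pups. In each strain 6 of 7 exposed pups lay above every control. The NEC increase of 0.38 ± 0.09 on the log2 scale passed the test (SE, edgeR adjusted p = 0.00391), and the GAERS value of 0.25 ± 0.09 did not (SE, edgeR adjusted p = 0.117). In GAERS the exposed pup within the range of controls was GAERS VPA 3, at 19.6 CPM, while its 6 exposed group mates lay at 25.7 to 30.3 CPM. Without it the GAERS log2 fold change of Ccnb1 was 0.32 (edgeR adjusted p = 0.0365), and without NEC control 3 it was 0.25 (edgeR adjusted p = 0.0499). Leaving out the 4 libraries gave 0.19 in GAERS and 0.31 in NEC. Surrogate variables in the model gave 0.29 in GAERS (edgeR adjusted p = 0.00047) and 0.27 in NEC.

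Pcna, the replication clamp, had a smaller fitted log2 fold change than each mitosis gene in either strain, a difference between genes that was not tested. It was at 93.8, 109 and 127 CPM in GAERS VPA pups, against 76.3, 99.4 and 112 CPM in GAERS control pups, and 2 of 7 exposed pups lay above every control. Levels were 104, 124 and 133 CPM in NEC VPA pups, against 81.5, 94.5 and 109 CPM in NEC control pups, and 6 of 7 exposed pups lay above every control. It rose in NEC by 0.32 ± 0.07 on the log2 scale (SE, edgeR adjusted p = 0.00276). In GAERS the log2 fold change was 0.15 ± 0.07 (SE, edgeR adjusted p = 0.288), and it was 0.06 without the 4 libraries least like their groups. The NEC value was 0.28 without those libraries and 0.19 with surrogate variables (edgeR adjusted p = 0.015). With surrogate variables the GAERS value was 0.18 and passed (edgeR adjusted p = 0.0126).

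Among the progenitor genes the larger fitted difference was in GAERS for Sox2 and in NEC for Nes and Vim. Sox2, the stem cell transcription factor, was at 153, 175 and 211 CPM in GAERS VPA pups, against 132, 142 and 159 CPM in GAERS control pups. In NEC VPA pups it was at 158, 164 and 194 CPM, against 134, 153 and 165 CPM in NEC control pups. In GAERS 6 of 7 exposed pups lay above every control, and in NEC 3 of 7. Sox2 rose by 0.30 ± 0.06 on the log2 scale in GAERS (SE, edgeR adjusted p = 0.0031) and by 0.17 ± 0.06 in NEC (SE, edgeR adjusted p = 0.0288). The log2 fold change of Sox2 in GAERS minus that in NEC was 0.13, with a 95% interval of -0.04 to 0.30, and did not pass the interaction test (edgeR adjusted p = 0.648). Sox2 was 0.25 higher in GAERS and 0.21 higher in NEC without the 4 libraries. The call in NEC was lost in fits that left out NEC VPA 3 (0.14 on the log2 scale, adjusted p = 0.0854), NEC control 2 (0.15, adjusted p = 0.0506), NEC control 5 (0.15, adjusted p = 0.0636) or NEC control 8 (0.15, adjusted p = 0.0612).

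Nes, which encodes the progenitor filament nestin, was at 31.9, 38.1 and 41.2 CPM in GAERS VPA pups, against 28.3, 35.2 and 39.2 CPM in GAERS control pups. Levels were 31.7, 40.2 and 42.1 CPM in NEC VPA pups, against 24.1, 29.3 and 36.7 CPM in NEC control pups. Exposed pups above every control numbered 3 of 7 in GAERS and 5 of 7 in NEC. Nes rose in NEC by 0.32 ± 0.09 on the log2 scale (SE, edgeR adjusted p = 0.00753). In GAERS the log2 fold change was 0.10 ± 0.09 (SE, edgeR adjusted p = 0.572), and it was 0.05 without the 4 libraries, 0.07 without GAERS control 1 alone and 0.16 with surrogate variables (edgeR adjusted p = 0.0495). The NEC value was 0.26 without the 4 libraries and 0.21 with surrogate variables.

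Vim, which encodes vimentin, had the smallest change of the 8 genes in the average. It was at 541, 579 and 628 CPM in GAERS VPA pups, against 450.3, 550.4 and 626 CPM in GAERS control pups, and 1 of 7 exposed pups lay above every control. In NEC VPA pups it was at 492, 548 and 609.6 CPM, against 335, 489 and 544 CPM in NEC control pups, and 4 of 7 did. Vim rose in NEC by 0.21 ± 0.07 on the log2 scale (SE, edgeR adjusted p = 0.0263), and this call was lost in fits without NEC VPA 1 (0.19, adjusted p = 0.0638) or NEC VPA 2 (0.20, adjusted p = 0.0551) and in a fit of the NEC pups alone (0.22, adjusted p = 0.063). It was 0.18 in NEC without the 4 libraries. In GAERS the log2 fold change was 0.10 ± 0.07 (SE, edgeR adjusted p = 0.473), and it was 0.05 without the 4 libraries. With surrogate variables Vim was 0.12 higher in GAERS, which passed (edgeR adjusted p = 0.0258), and 0.15 higher in NEC.

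Counted by strain, 8 of 8 genes were called higher in NEC VPA pups, where 11.1% of all tested genes were. In GAERS VPA pups 2 of 8 were called higher, Cdk1 and Sox2, where 1.88% of all tested genes were. The median log2 fold change of the 8 genes was 0.35 in NEC and 0.27 in GAERS, against -0.0047 and 0.0026 over all tested genes. These values, too, are a description, given how the genes were chosen. In GAERS the point estimates were above 0 for all 8 genes, where 51% of all tested genes were. An unadjusted edgeR p under 0.05 was found for 5 of 8, where 17.9% of all tested genes had one. These shares are likewise a description. Without the 4 libraries least like their groups, 8 were called in NEC, with log2 fold changes of 0.18 to 0.46, and 2 in GAERS, with 0.05 to 0.28 over all 8 genes. The count in GAERS depended on the fit. It was 4 without NEC control 3, a library of neither GAERS group, 1 without GAERS VPA 4, GAERS VPA 5 or GAERS control 7, when Cdk1 lost its call, and 8 with 5 surrogate variables in the model, where 4724 genes were called in place of 607.

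**Figure D2:**
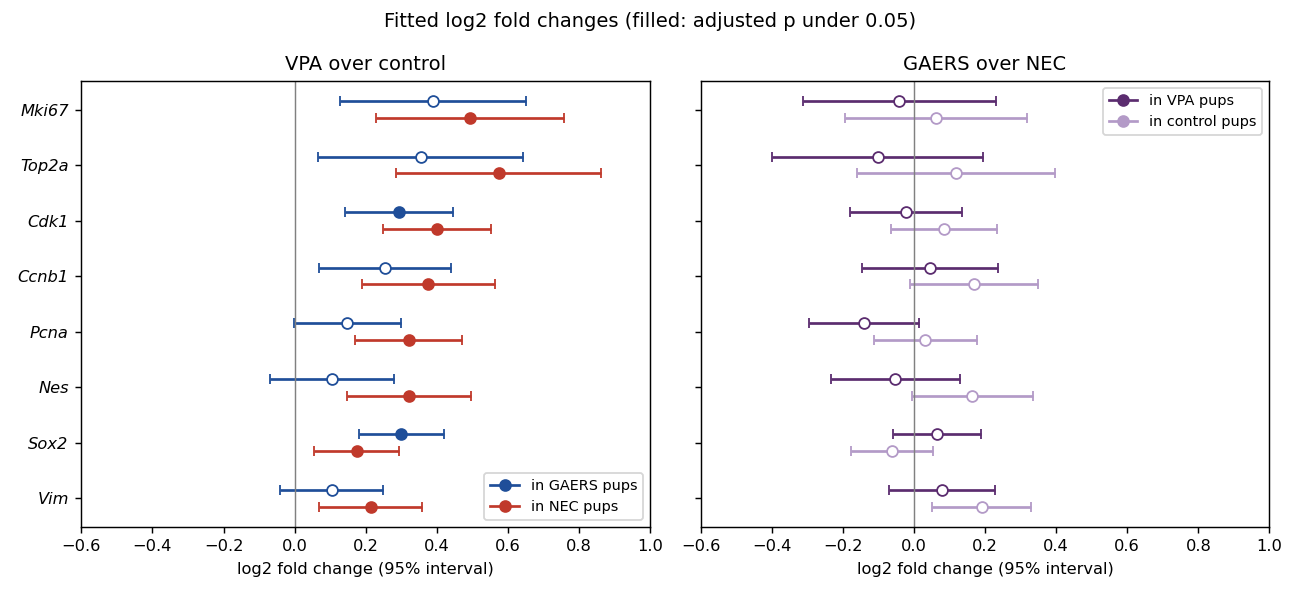
Fitted log2 fold changes with 95% intervals for each gene, VPA over control in GAERS and NEC pups (left) and GAERS over NEC in VPA and control pups (right), with filled points for an adjusted p under 0.05. All 16 VPA estimates lie above 0 and 10 are filled, while none of the 16 strain estimates is filled.

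The larger number of calls in NEC was not shown to be a difference between strains. In the interaction, 0 of 8 members and 0% of all tested genes passed edgeR's test. An unadjusted p under 0.05 was found for 0 of 8 members and for 8.05% of all tested genes (1278 genes). With so small a share, a count of 0 among 8 genes does not set the members apart. DESeq2 and limma-voom called none of the members. The VPA effect in GAERS minus that in NEC was -0.22 on the log2 scale for Top2a (95% interval -0.63 to 0.19) and -0.22 for Nes (-0.46 to 0.03). For Mki67 it was -0.10 (-0.48 to 0.27). These intervals are wide against the VPA effects themselves. The direction depended on the fit: with the 4 group means alone in the model 7 members were below 0 and Sox2 above it, but with surrogate variables Mki67 was at 0.11, Top2a, Cdk1 and Ccnb1 were at 0.02 each and Nes was at -0.05. Without NEC control 3 the value was -0.03 for Mki67 and -0.13 for Top2a. The 8 values ran from -0.22 for Top2a to 0.05 for Sox2 without the 4 libraries.

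Unexposed GAERS and NEC pups did not differ in any of the 8 genes by edgeR's test, where 8.66% of all tested genes did. An unadjusted p under 0.05 was found for 22.3% of all tested genes and for 1 of the 8 genes. That gene was Vim, at 538 ± 50.2 CPM in GAERS control pups and 471 ± 62.3 CPM in NEC control pups (SD, n = 8 each), which is 0.19 ± 0.07 higher on the log2 scale (SE, edgeR adjusted p = 0.082). Vim passed with limma-voom and quality weights (0.17, adjusted p = 0.00634), without the 4 libraries (0.17, adjusted p = 0.0113), without GAERS control 1 (0.22, adjusted p = 0.0259) and without NEC control 6 (0.22, adjusted p = 0.0374). The log2 differences of the other 7 genes ran from -0.06 for Sox2 to 0.17 for Ccnb1. For Mki67 the difference was 0.06 with a 95% interval of -0.19 to 0.32, and its sign turned without NEC control 3 (-0.01) and with surrogate variables (-0.05). With surrogate variables Vim was at 0.10 and Sox2 turned to 0.00043. Without the 4 libraries the 8 differences ran from -0.03 for Sox2 to 0.17 for Vim.

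Between exposed GAERS and exposed NEC pups, 0 of 8 genes passed edgeR's test, where 12.3% of all tested genes did. None of the 8 had an unadjusted p under 0.05, where 27.7% of all tested genes did, and DESeq2 called none. Differences ran from -0.14 on the log2 scale for Pcna to 0.08 for Vim. Pcna was at 108 ± 11.7 CPM in GAERS VPA pups and 119 ± 10.1 CPM in NEC VPA pups (SD, n = 7 each), with a 95% interval of -0.30 to 0.01 on the log2 scale. With surrogate variables the Pcna difference was -0.0014, and those of Mki67, Top2a, Cdk1 and Nes, below 0 without them, were 0.06, 0.02, 0.08 and 0.07. Leaving out 1 exposed pup also turned the sign for Mki67 (NEC VPA 1, NEC VPA 3, GAERS VPA 3 or GAERS VPA 7, at 0.0024 to 0.04) and for Cdk1 (NEC VPA 1, NEC VPA 3, GAERS VPA 2 or GAERS VPA 3, at 0.0027 to 0.02). Without the 4 libraries the 8 differences ran from -0.17 for Pcna to 0.04 for Vim. The strain comparisons share their libraries with the VPA comparisons.

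Pups also differed within groups, and most of the 8 genes moved together. This was not particular to them, because many other genes followed the same variation, as given below. Deviations of log2 CPM from the group mean were correlated across the 30 pups for the 28 pairs of genes, with two-sided permutation p-values from shuffling pups within groups (100000 resamples), adjusted over the 28 pairs. Mki67 and Top2a had the highest correlation (Pearson r = 0.954, Spearman rho = 0.936). Within the 4 mitosis genes r ran from 0.747 to 0.954 and rho from 0.730 to 0.936, with permutation p at the smallest value that the resamples allow (1e-05) for each r and an adjusted p of 1.87e-05. Without the 2 pups farthest from the median of the first gene of a pair, r ran from 0.754 to 0.926.

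Pcna varied with the mitosis genes (r = 0.780 to 0.872, rho = 0.763 to 0.847, adjusted permutation p = 1.87e-05 for each r) and with Nes (r = 0.835, rho = 0.840, adjusted permutation p = 1.87e-05). The mitosis genes correlated with Nes or Vim at r = 0.602 to 0.776 and rho = 0.496 to 0.747, with adjusted permutation p of at most 0.000672 for r and 0.0106 for rho. Without the 4 libraries least like their groups these r were between 0.449 and 0.683. Nes and Vim had r = 0.602 and rho = 0.442 (adjusted permutation p = 0.00165 and 0.0274), and r was 0.396 without the 2 farthest pups.

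Sox2 was not shown to vary with the other members. Its 7 correlations with them ran from r = -0.0905 with Vim to 0.294 with Pcna, and rho from -0.0372 to 0.185. None passed the permutation test (smallest adjusted p = 0.173 for r and 0.456 for rho). With 2 pups left out of each pair the r ran from -0.214 to 0.462. The groups differed in these values: within the 7 GAERS VPA pups r was 0.729 with Pcna, 0.728 with Vim and 0.530 with Nes, while within the 8 NEC control pups the r of Sox2 with the other members ran from -0.433 for Top2a to 0.186 for Cdk1. These values within groups are a description of 7 or 8 pups and were not tested.

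**Figure D3:**
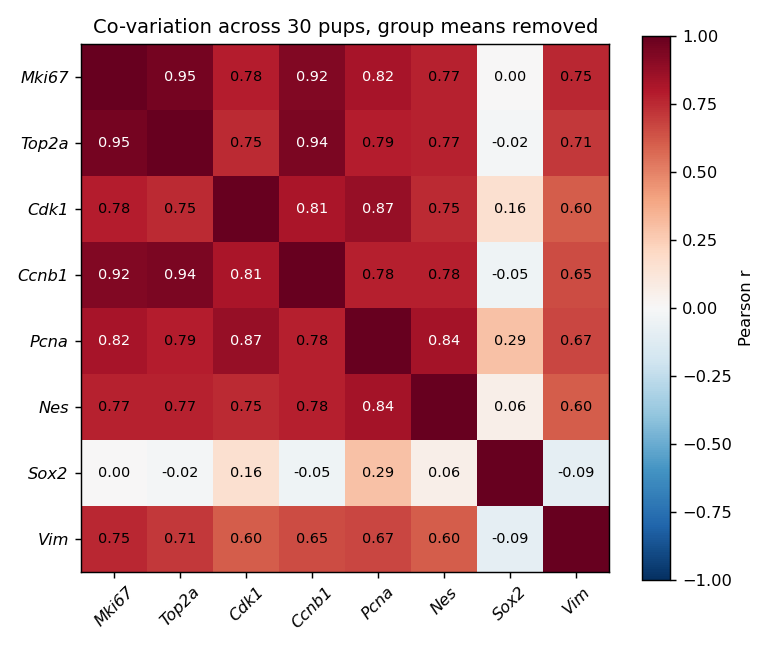
Pearson r between each pair of genes over 30 pups, from log2 CPM with the group means removed. All 21 pairs without Sox2 lie between 0.60 and 0.95, and the 7 pairs with Sox2 between -0.09 and 0.29.

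The same pups were extreme for most of the genes. NEC control 3 was the lowest NEC control for 7 of the 8 genes and the highest for Sox2, at 165 CPM. GAERS control 1 was the lowest GAERS control for 7 of the 8. Among exposed pups, GAERS VPA 3 was the lowest of its group for the 4 mitosis genes and Nes, while its Sox2 level of 179.8 CPM was the second highest of its group. GAERS VPA 4 was the highest of its group for 5 of the 8 genes. All 7 NEC VPA pups had all 8 genes above the mean log2 CPM of NEC controls, as had 5 of 7 GAERS VPA pups relative to GAERS controls. Of control pups, 1 of 8 GAERS and 2 of 8 NEC had all 8 genes above that mean. Some margins were small, at 0.05 on the log2 scale for Nes in NEC VPA 5 and 0.08 for Vim in NEC VPA 7. The NEC control mean includes NEC control 3. Because most of the genes moved together, the 8 genes of a pup are not separate observations.

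**Figure D4:**
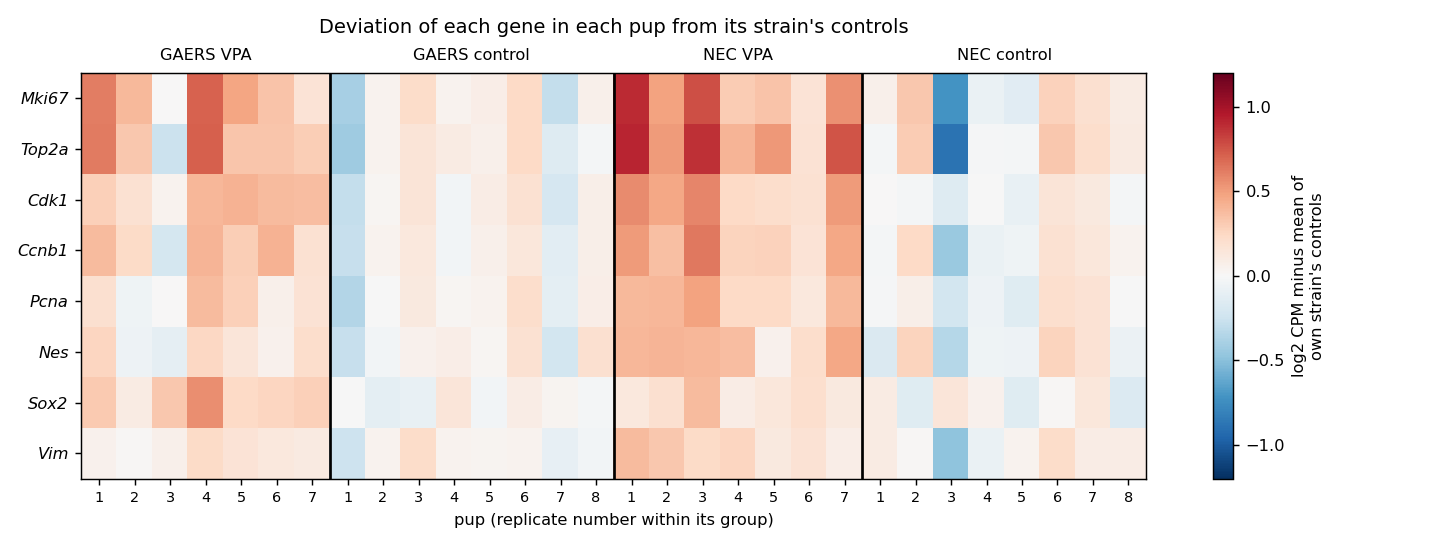
Difference in log2 CPM of each gene in each pup from the mean of its own strain's controls (colour scale), with GAERS VPA, GAERS control, NEC VPA and NEC control from left to right. All 7 NEC VPA pups are above 0 for all 8 genes, and NEC control 3 and GAERS control 1 are the lowest NEC and GAERS controls for 7 of the 8 genes.

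The spread between pups was itself larger for some genes. The coefficient of variation of CPM within a group was at least 14.9% for Mki67 and at least 13.4% for Top2a in every group. It was at most 12.1% for Cdk1 and at most 9.84% for Sox2. The 2 genes with the largest VPA effects, Mki67 and Top2a, therefore also had the largest standard errors, and Cdk1 had the smallest adjusted p of the 8 for the average (2.84e-05).

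Many other genes followed the same variation between pups. With a floor of r = 0.8 on group-centred log2 CPM over 30 pups, 571 other genes followed Mki67, 638 Top2a, 245 Ccnb1, 154 Pcna, 82 Nes, 58 Vim, 20 Cdk1 and 0 Sox2. Genes that ran opposite, at r of -0.8 or below, numbered 486 for Mki67, 572 for Top2a, 93 for Ccnb1, 203 for Pcna, 71 for Nes, 32 for Vim, 10 for Cdk1 and 0 for Sox2. Out of all 15884 other tested genes, the gene most like Ccnb1 was Top2a (r = 0.941), and for Mki67 Top2a ranked second. The closest other member ranked 2 for Cdk1, 7 for Top2a, 18 for Pcna, 26 for Nes, 181 for Vim and 2548 for Sox2. The gene that ranked first for Mki67 was ENSRNOG00000012318 (r = 0.955). For the VPA average 13.9% of all tested genes were called higher. Of the genes that followed a member, the share called higher was 39.8% for Mki67, 35.9% for Top2a, 95% for Cdk1, 56.7% for Ccnb1, 77.9% for Pcna, 75.6% for Nes and 32.8% for Vim, and 1 gene, among those that followed Top2a, was called lower. These lists come from the same pups and are given as a description. Their symbols are not paired with identifiers here, so shared markers of any cell type could not be read from them.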

How the data were processed

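Brain RNA of 30 rat pups was sequenced after a stranded total RNA library preparation, per the labels' protocols. The authors deposited raw, unnormalized counts for Ensembl genes, with 1 column per pup. Per the submitters' processing notes, FastQC and STAR 2.5 were used with Rnor_6.0 (rn6). How reads were counted, on which annotation and with which strand setting is not stated, so overlapping genes may share reads. Replicate numbers were given in accession order and do not pair pups.

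The 8 members and the 14 marker lists (164 genes) were chosen with earlier results of these data known. Every member is named. Of the non-member genes most like each member, only that of Mki67 is printed, as 1 identifier, because symbols were lacking. The marker lists were not run: the RefSeq gene table at hand (47357 rows, GRCr8) holds no Ensembl identifier, so 0 rows matched. Promoters were matched to the members by symbol (8 of 8).

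The tests used edgeR 4.0.16 in R 4.3.3. Genes passed filterByExpr (minimum count 10, total count 15; 15885 kept), library sizes were scaled by TMM, and 1 robust quasi-likelihood model held the means of the 4 groups. Benjamini-Hochberg adjustment covered every gene tested, and calls needed an adjusted p under 0.05. Standard errors come from the F statistic, and 95% intervals from the t distribution with the fit's degrees of freedom. Log2 CPM used a prior count of 2. Replicate pairs differed by more than counting noise (lowest chi-square per degree of freedom 5.27), and each library was kept as its own sample. The fit was tested on simulated data. As alternatives, sizes were scaled by RLE or upper quartile, low genes were kept or cut at 1 CPM in 7 libraries, and tests were run with DESeq2 1.42.0, limma-voom 3.58.1 with quality weights, with library number, log2 total count or 5 surrogate variables (sva 3.50.0) in the model, on only the groups compared, without each library in turn, and without the 4 libraries least like their groups.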

Additional observations from a re-analysis of the deposited data

Results flagged for a closer look

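In each group of 7 or 8 pups the CPM of each of the 8 genes was screened with Dixon's gap test for a single distant value. In 3 of 32 sets such a pup was found, where chance gives about 1 in 20, or 1.6 sets. Top2a was at 41.0 CPM in NEC control 3, against 74.3 to 94.7 CPM in the other NEC controls. Ccnb1 was at 19.6 CPM in GAERS VPA 3, against 25.7 to 30.3 CPM in the other exposed GAERS pups. Sox2 was at 194 CPM in NEC VPA 3, against 158 to 171 CPM in the other exposed NEC pups. What set these pups apart was not tested.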

How the results depend on the processing

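All 8 genes kept their VPA average direction and call in all 40 alternatives run for it. The number of members called for VPA in GAERS, 2, was 8 with surrogate variables and ran from 1 to 4 when each library was left out. For VPA in NEC, 8 were called, and 7 to 8 when each library was left out, with 7 in a fit of the NEC pups alone, where Vim had an adjusted p of 0.063. For strain in controls, 0 members were called, but 1 with limma-voom, 1 without the 4 libraries and 0 to 1 when each library was left out. Mki67 in GAERS passed with DESeq2 (adjusted p = 0.0477) and without NEC control 3 (adjusted p = 0.0312), as did Ccnb1 without NEC control 3 (adjusted p = 0.0499). Cdk1 in GAERS missed the threshold without GAERS VPA 4 (adjusted p = 0.0606), GAERS VPA 5 (0.062) or GAERS control 7 (0.0541). No called value of a member changed sign, but uncalled strain and interaction values did, for example with surrogate variables and without single libraries. Most but not all of these changes are given beside the values above. Between exposed pups the strain differences of Mki67 and Cdk1 kept their sign in 35 of 41 alternatives each. Upper-quartile scaling shifted the median gene by 0.016 on the log2 scale for the VPA average. It made the share higher among all called genes 56.5% in place of 47.7%, and with it 8 members were still called. The number of genes called for VPA in GAERS, 607, was 401 with no filter, 1116 with limma-voom, 950 without the 4 libraries, 4724 with surrogate variables and 279 to 1034 when each library was left out. For the interaction, edgeR called 0 genes, DESeq2 2, limma-voom 140, edgeR without the 4 libraries 91, and 0 to 2 were called when each library was left out. Genes called for strain in controls numbered 1375, but 3022 with limma-voom and 2364 with surrogate variables. For strain in exposed pups the number was 1951, but 2960 without the 4 libraries and 1281 without GAERS VPA 2. The cause of these changes was not tested. No paired analysis was possible because nothing in the labels links a pup of 1 group to a pup of another. Each of the 8 genes had at least 470 counts in every pup. Mean total counts were lower in exposed pups, at 32023000 in GAERS VPA and 33116600 in NEC VPA. They were 36332900 in GAERS control and 36356500 in NEC control. With log2 total count in the model, 8 members were called for the VPA average, 8 in NEC and 2 in GAERS. The part of depth in the differences was not tested otherwise.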
